A study of Mus musculus with 18 samples.

Results

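The comparison set KPCA.B cells that carried the hairpin labelled shNdufa5_2 and were grown in medium of proliferating cells (shNdufa5_2_PCM) against cells that carried a control hairpin and were grown in medium of senescent cells (shControl_SCM). KPCA.B is a cell line of the mouse that models high-grade serous carcinoma of the ovary. PCM was conditioned by proliferating cells given DMF, the vehicle, and SCM by cells that cisplatin had made senescent. All cells had a 1:1 mix of such medium and fresh high-glucose DMEM with 4% heat-inactivated serum, 2 ng/mL EGF and the supplement ITS-G. Polyadenylated RNA was sequenced in 3 libraries of each group, 6 of the 18 libraries of the series. The libraries were chosen by their labels, and 11084 of 54532 genes had a mean of at least 1 FPKM (fragments per kilobase of gene, scaled to the library) over all 18 libraries and were tested. Both hairpin and medium differ between these groups, so their parts in a difference cannot be told apart in this comparison. The question was how far cells with the hairpin resembled, before exposure to senescent medium, control cells after it.

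Senescent cells no longer divide but go on secreting cytokines, chemokines, proteases and matrix proteins, and neighbouring cells take up these signals. Known responses of bystander cells include NF-kB and interferon programmes, which turn on secreted defence proteins, chemokines and antiviral genes, and stress programmes such as the heat shock response. Ndufa5 encodes 1 of the accessory subunits of complex I, the respiratory enzyme of the mitochondrial inner membrane that takes electrons from NADH. Complex I is built from nuclear and mitochondrial gene products, and most of its subunits are encoded in the nucleus.

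Sequencing depth was worked out from the step size of low FPKM values and was 16.7, 16.8 and 13.8 M (M, mega) fragments in the libraries labelled shNdufa5_2_PCM and 15.2, 38.9 and 15.4 M in the shControl_SCM libraries. FPKM values summed to 389116, 382799 and 369807 in the libraries labelled shNdufa5_2_PCM and to 439315, 484520 and 437859 in the shControl_SCM libraries. The single feature Gm23935 held 73610, 70030 and 59660 FPKM of these sums in the libraries labelled shNdufa5_2_PCM. It held 71700, 105400 and 71190 FPKM in the shControl_SCM libraries, and so weighs on the scaling to the same FPKM sum used below. The labels do not state whether the 3 libraries of each group were separate cultures. The p-values then describe only the spread between libraries within groups, pooled over all 18 libraries, and that spread may be technical. Carcinoma genes of the label were present: Krt7, a simple-epithelium keratin, lay at 228 to 232 FPKM in the libraries labelled shNdufa5_2_PCM and 282 to 295 in the shControl_SCM libraries, and Pax8, a transcription factor of the Müllerian lineage, was also detected. Epcam and Cdh1 stayed below 1 FPKM, and Wt1 and Muc16 were at 0 in all 6 libraries. Among markers of other cell types, Thy1 (fibroblasts), Ptprc and Adgre1 (leukocytes) and Cldn5 and Emcn (endothelium) were at 0. Other such markers were present: in all 6 libraries together the endothelial gene Plvap lay at 5.67 to 8.34 FPKM, the leukocyte gene Cd68 at 5.92 to 8.70 and Cd14 at 5.34 to 7.47, and the mesothelial gene Msln at 50.4 to 63.9. The summed FPKM of 11 leukocyte markers was 12.3 to 15.3 in the libraries labelled shNdufa5_2_PCM and 12.2 to 14.5 in the shControl_SCM libraries, and that of 11 fibroblast markers was 9.97 to 10.7 in the libraries labelled shNdufa5_2_PCM and 12.1 to 14.2 in the shControl_SCM libraries. The sum of 8 endothelial markers was 6.90 to 7.47 in the libraries labelled shNdufa5_2_PCM and 5.67 to 8.48 in the shControl_SCM libraries, and that of 7 mesothelial markers, with 4 of them at 0, was 284 to 291 in the libraries labelled shNdufa5_2_PCM and 464 to 503 in the shControl_SCM libraries.

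Ndufa5, the gene the hairpin is directed against, was lower in the libraries labelled shNdufa5_2_PCM, but kept most of its level. The gene (ENSMUSG00000023089, 6:24518666-24528013, minus strand, GRCm38) had 18.7, 17.2 and 16.8 FPKM there and 22.3, 26.2 and 20.9 FPKM in the shControl_SCM libraries. The mean of 17.5 ± 1 FPKM was 75.8% of that of shControl_SCM, 23.1 ± 2.77 FPKM (SD, n = 3 each). No library of the lower group reached the higher one, a separation that 48.9% of all tested genes showed in 1 direction or the other. The log2 difference was -0.38 (SE 0.12, 95% interval -0.63 to -0.12, limma adjusted p = 0.0214, Benjamini-Hochberg), and an exact permutation test, two-sided, gave p = 0.1, which is the smallest possible with 3 against 3 libraries. Control cells in PCM had 15.2, 19.0 and 22.1 FPKM, a range that takes in all 3 libraries labelled shNdufa5_2_PCM. The level of Ndufa5 therefore does not set these libraries apart from shControl in the same medium, and each direction below belongs to libraries so labelled, not to a measured loss of the gene. The difference did not pass with values scaled to the same FPKM sum (-0.13, adjusted p = 0.397), with quantile normalization (-0.29, adjusted p = 0.0706) or without shControl_SCM replicate 2 (-0.29, adjusted p = 0.102). It also missed without replicate 2 (-0.36, adjusted p = 0.0587) or replicate 3 (-0.35, adjusted p = 0.066) of the libraries labelled shNdufa5_2_PCM.

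Across all genes the libraries labelled shNdufa5_2_PCM stood about as far from control cells in SCM as from control cells in PCM. The root mean square difference between 2 libraries, over the log2(FPKM + 1) values of the 11084 genes, was 0.362 to 0.391 for the 9 pairs of a library labelled shNdufa5_2_PCM and a shControl_SCM library, with a median of 0.375. To shControl_PCM it was 0.317 to 0.369 (median 0.35). The control cells of the 2 media were further from each other, at 0.478 to 0.508 (median 0.503). Libraries of 1 group differed by 0.254 to 0.281 within shNdufa5_2_PCM and by 0.28 to 0.312 within shControl_SCM, so no pair across the groups was as close as any pair within either. These distances share libraries and are given as a description.

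**Figure D1:**
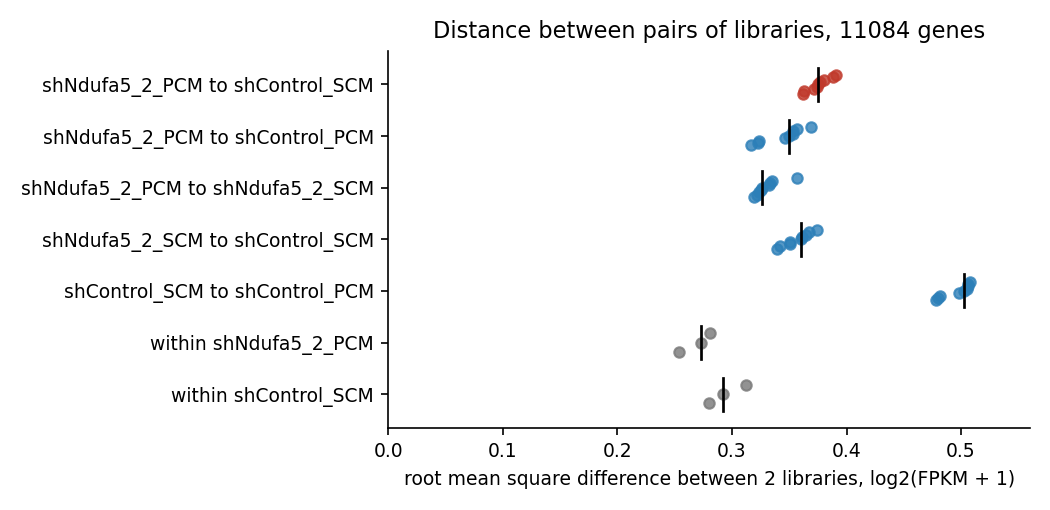
Root mean square difference on log2(FPKM + 1) over 11084 genes for each pair of libraries (points) and its median (bars). Pairs of shNdufa5_2_PCM with shControl_SCM (red) lie at 0.362 to 0.391, above all pairs within these groups (grey) and below the pairs of the control cells in the 2 media, at 0.478 to 0.508.

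Many genes differed, most of them by little. With a call at an adjusted p under 0.05 (limma, Benjamini-Hochberg), 4453 of 11084 genes (40.2%) differed, of which 1976 (17.8%) rose in the libraries labelled shNdufa5_2_PCM and 2477 (22.3%) fell. The median difference was -0.01, the median absolute difference 0.18, and the 10th and 90th percentiles were -0.40 and 0.30 on the log2 scale. Counts of list members given below are to be read beside the 17.8% of all genes that rose and the 22.3% that fell. By at least 2-fold, 25 genes (0.226%) fell and 4 (0.0361%) rose. The 95% interval lay within -0.5 and 0.5 for 7979 genes (72%) and wholly outside that band for 192 (1.73%). The split of the calls depends on the scaling: with values scaled to the same FPKM sum the median of all genes moved to 0.20, and 4260 genes rose and 531 fell. List counts and medians at that scaling, given below, carry this shift of all genes and are to be read against it. Quantile normalization also turned the split, with 2179 rises and 1738 falls and a median of 0.02. List counts at that setting are to be read beside these. Differences also followed gene properties, with a Spearman rho of -0.42 to GC content and 0.24 to length over 11074 genes, given as a description. Removing both trends left 1354 rises and 2292 falls, and 16 of 149 named genes then no longer passed.

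The same fit gave the neighbouring comparisons, which share libraries with this one. For shNdufa5_2_PCM minus shControl_PCM it called 3947 genes (35.6%), with 26 rises (0.235%) and 8 falls (0.0722%) of at least 2-fold, and 8421 intervals within the band (76%). For shControl_SCM minus shControl_PCM it called 6863 genes (61.9%), with 254 rises (2.29%) and 37 falls (0.334%) of at least 2-fold, and 5778 intervals within the band (52.1%). Exposure of the cells with the hairpin, shNdufa5_2_SCM minus shNdufa5_2_PCM, gave 2532 calls (22.8%), with 12 rises (0.108%) and 5 falls (0.0451%) of at least 2-fold. The median absolute log2 difference was 0.18 in the main comparison, 0.16 for the hairpin within PCM, 0.29 for the medium in control cells and 0.13 for the medium in cells labelled shNdufa5_2.

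**Figure D2:**
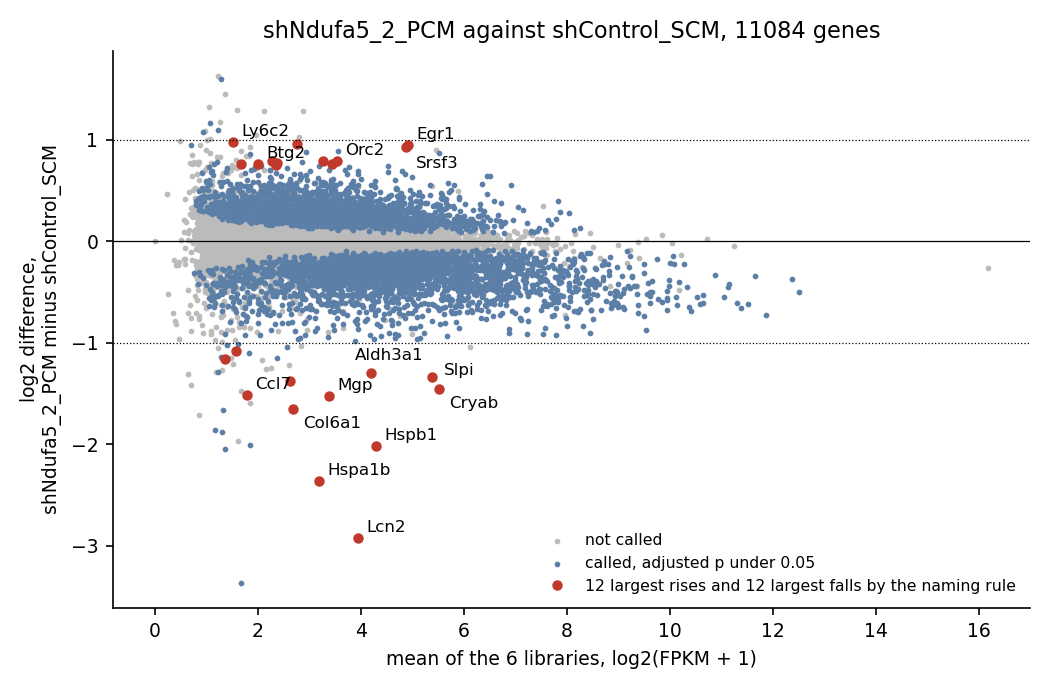
Log2 difference of shNdufa5_2_PCM minus shControl_SCM (vertical axis) against the mean of the 6 libraries on log2(FPKM + 1) (horizontal axis) for 11084 genes, with called genes in blue, the 12 named rises and 12 named falls in red and 2-fold changes at the dotted lines. Lcn2 (-2.93), Hspa1b (-2.36) and Hspb1 (-2.02) lie furthest below 0 among the named genes, and Ly6c2 (0.98) and Egr1 (0.95) furthest above it.

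Genes for secreted defence proteins lay far below their level in control cells in SCM. Lcn2, a secreted lipocalin that binds bacterial siderophores (ENSMUSG00000026822, 2:32384633-32388252, minus strand, GRCm38), had 5.04, 4.69 and 4.09 FPKM in the libraries labelled shNdufa5_2_PCM against 42.9, 40.1 and 41.6 FPKM in the shControl_SCM libraries. The groups lay far apart, and the libraries labelled shNdufa5_2_PCM lay just below the 5.35 to 5.83 FPKM of control cells in PCM. The log2 difference was -2.93 ± 0.08 (SE, limma with Benjamini-Hochberg, adjusted p = 6.71e-12). Slpi, an inhibitor of leukocyte proteases, had 21.0, 28.7 and 26.3 FPKM in the libraries labelled shNdufa5_2_PCM against 65.5, 63.3 and 66.6 FPKM in the shControl_SCM libraries, a difference of -1.34 ± 0.09. Unlike Lcn2 it lay above the 10.4 to 11.6 FPKM of control cells in PCM, with a log2 difference from them of 1.11. The complement component C3 (-1.16), the copper-carrying ferroxidase Cp (-0.76) and the WAP-domain protein gene Wfdc2 (-0.73), whose human product is a serum marker of ovarian carcinoma, fell too. Of 7 tested genes of secreted defence and acute phase, 5 fell and none rose, with a median of -0.76 beside -0.01 over all genes. For the same list the median was 0.02 for shNdufa5_2_PCM minus shControl_PCM and 0.82 for shControl_SCM minus shControl_PCM.

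**Figure D3:**
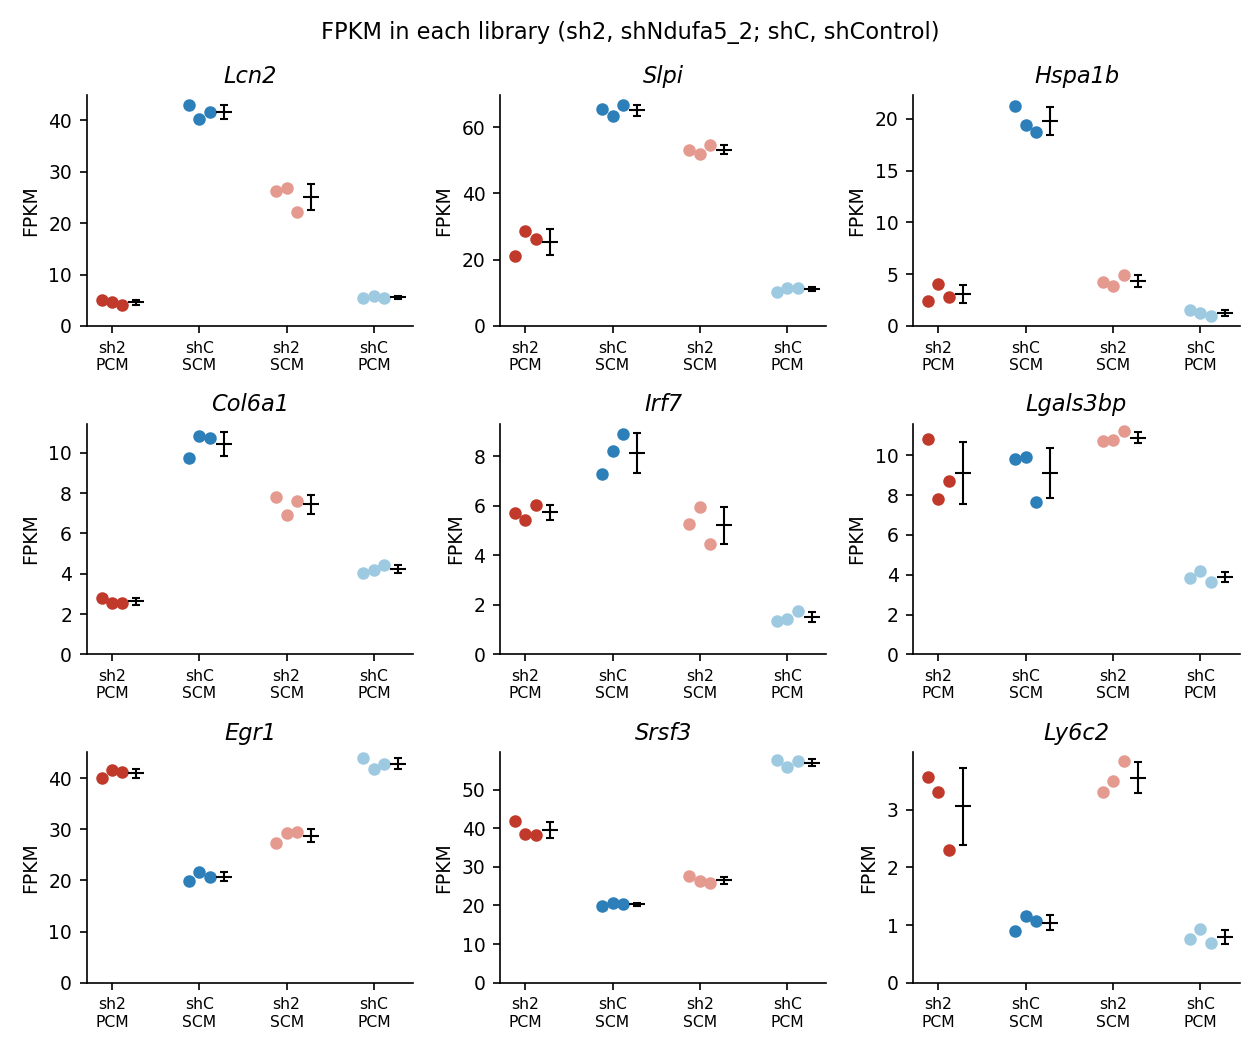
FPKM of 9 genes in each library (points), with mean and SD (bars, n = 3), for libraries labelled shNdufa5_2 in PCM, shControl in SCM, shNdufa5_2 in SCM and shControl in PCM. Lcn2, Slpi, Hspa1b, Col6a1 and Irf7 lie lower in shNdufa5_2 in PCM than in shControl in SCM, Egr1, Srsf3 and Ly6c2 lie higher, and Lgals3bp averaged 9.11 FPKM in both.

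Chemokine and cytokine genes were mostly lower. Of 17 tested, 13 fell, 1 rose and 3 did not pass, with a median of -0.39. With the same FPKM sum 7 fell and 1 rose (median -0.21). Ccl7, which attracts monocytes, had 0.845, 0.53 and 2.03 FPKM in the libraries labelled shNdufa5_2_PCM against 6.22, 4.07 and 4.50 FPKM in the shControl_SCM libraries (-1.52 ± 0.22). Cxcl2, which attracts neutrophils, had 2.41, 3.78 and 2.54 FPKM in the libraries labelled shNdufa5_2_PCM against 7.16, 9.49 and 10.8 FPKM in the shControl_SCM libraries (-1.37 ± 0.15). Neither gene's groups overlapped. Ccl2 (-0.97), the epithelial cytokine gene Tslp (-0.93) and Ccl5 (-0.76) followed. The single rise was Csf2, which encodes the growth factor GM-CSF, with 17.9, 15.9 and 15.6 FPKM in the libraries labelled shNdufa5_2_PCM against 10.5, 11.4 and 10.8 FPKM in the shControl_SCM libraries (0.56 ± 0.13). Among 23 NF-kB feedback genes and targets, 3 rose (13%, beside 17.8% of all genes), 7 fell (30.4%, beside 22.3%) and 13 did not pass (median 0.01). With the same FPKM sum there were 10 rises and 4 falls (median 0.24), where the median of all genes was 0.20 and most calls were rises. The balance was 8 rises and 6 falls with the GC and length trends removed. The adhesion molecule gene Vcam1 (-0.72) and the atypical IkB gene Bcl3 (-0.70) fell, while the signalling adaptor gene Traf1 (0.66), the inhibitor gene Nfkbie (0.59) and the ubiquitin-editing enzyme gene Tnfaip3 (0.41) rose.

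Heat shock genes included a few with large falls. Heat shock factor binds inverted repeats of the letters GAA, and promoters of the list were searched for GAANNTTC or TTCNNGAA on either strand in the 250 bases before the start (RefSeq, GRCm38.p6). Such letters stood in 12.8% of 32851 promoters and in 8 of the 19 promoters of tested list genes. Counted by gene, 7 of the 13 tested list genes with a promoter entry had them: Hspa1b, Hspb1, Hsph1, Hspd1, Hspe1, Dnaja1 and Dnajb4. The windows of 4 of them are shown because they span the range of the differences, with matches in capitals, each read 5′ to 3′ on the strand of the gene. They come from chr17:34959320-34959357 (minus), chr5:135887787-135887844 (plus), chr5:149636347-149636384 (minus) and chr1:55088044-55088091 (minus), a window that Hspd1 shares with Hspe1 on the opposite strand and that holds 3 overlapping matches.
Hspa1b: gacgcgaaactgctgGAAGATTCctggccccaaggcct
Hspb1: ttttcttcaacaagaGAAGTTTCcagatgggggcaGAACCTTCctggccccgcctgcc
Hsph1: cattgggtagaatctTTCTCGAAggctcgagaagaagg
Hspd1: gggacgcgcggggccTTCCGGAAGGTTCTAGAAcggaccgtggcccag

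Hspa1b, an inducible chaperone of the Hsp70 family, had 2.44, 4.05 and 2.79 FPKM in the libraries labelled shNdufa5_2_PCM against 21.2, 19.4 and 18.7 FPKM in the shControl_SCM libraries, a log2 difference of -2.36 ± 0.16 (SE, limma with Benjamini-Hochberg, adjusted p = 3.25e-08). Its copy Hspa1a is nearly identical, and fragments may be counted for either. Hspb1, which encodes a small heat shock protein and whose promoter held 2 matches, had 9.49, 8.06 and 8.82 FPKM in the libraries labelled shNdufa5_2_PCM against 37.4, 35.4 and 43.1 FPKM in the shControl_SCM libraries (-2.02 ± 0.19). Both genes were also far below their shControl_SCM level in the SCM libraries labelled shNdufa5_2, where Hspa1b averaged 4.36 FPKM and Hspb1 11.3 FPKM. Cryab, the lens and muscle small heat shock protein alpha B crystallin, had 28, 25.7 and 26.2 FPKM in the libraries labelled shNdufa5_2_PCM against 76.2, 78.3 and 70.3 FPKM in the shControl_SCM libraries (-1.46 ± 0.06), and the constitutive Hsc70 gene Hspa8 fell by 0.91.

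The other heat shock genes with matches had smaller differences. Hsph1, a nucleotide exchange factor of Hsp70, fell by 0.46 ± 0.04. The mitochondrial chaperonin genes Hspd1 and Hspe1, which share the printed window, gave 0.10 and -0.19, of which Hspd1 rose (adjusted p = 0.042) and Hspe1 did not pass (adjusted p = 0.0596, limma with Benjamini-Hochberg). The Hsp40 genes Dnaja1 (-0.09) and Dnajb4 (0.02) did not pass. In all, 12 of 18 tested heat shock genes fell, 1 rose and 5 did not pass, with a median of -0.26, of 0.04 for shNdufa5_2_PCM minus shControl_PCM and of 0.43 for shControl_SCM minus shControl_PCM. Leaving out each library in turn gave 11 or 12 falls and 0 or 1 rise. With the same FPKM sum the median was -0.02, beside 0.20 for all genes, and 6 fell and 3 rose. Of all 11084 genes 531 fell and 4260 rose at that scaling. A match in these letters is a description of the sequence only.

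By their median, interferon-stimulated genes lay above their level in unexposed control cells and differed little from that in exposed ones. Of 21 tested genes, 5 fell (23.8%, beside 22.3% of all genes), 1 rose (4.76%, beside 17.8%) and 15 did not pass, with a median of -0.06. The median was 0.61 for shNdufa5_2_PCM minus shControl_PCM and 0.78 for shControl_SCM minus shControl_PCM, and the interval of the main comparison lay within -0.5 and 0.5 for 12 of the 21, while that of all genes did so for 72%. Scaling to the same FPKM sum moved the main median to 0.11, below the 0.20 of all genes, with 2 falls and 3 rises. The interferon-stimulated response element was searched as the letters GAAA and GAAA with any 2 bases between them, on either strand of the same windows. It stood in 2.98% of all promoters and in 5 of the 20 promoters of tested list genes. Counted by gene, these belonged to 5 of 18 list genes with an entry, Isg15, Bst2, Ifit1, Ifit3 and Stat2. Windows of 2 of them are shown, from chr4:156200860-156200911 (minus) and chr8:71537572-71537617 (minus), because Bst2 fell and Isg15 did not pass. Isg15 holds 3 overlapping matches and Bst2 holds 2.
Isg15: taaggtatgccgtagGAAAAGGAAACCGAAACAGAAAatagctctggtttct
Bst2: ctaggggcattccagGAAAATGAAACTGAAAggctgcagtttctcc

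Isg15, the ubiquitin-like protein of the antiviral response, had 11.6, 16.3 and 11.6 FPKM in the libraries labelled shNdufa5_2_PCM against 15.5, 20 and 13.7 FPKM in the shControl_SCM libraries. The groups overlapped, and the difference of -0.30 (95% interval -0.83 to 0.23) did not pass (limma with Benjamini-Hochberg, adjusted p = 0.362). Control cells in PCM had 4.40 to 5.01 FPKM, below both groups. Irf7, the transcription factor that amplifies type I interferon, had 5.72, 5.45 and 6.03 FPKM in the libraries labelled shNdufa5_2_PCM against 7.29, 8.21 and 8.89 FPKM in the shControl_SCM libraries and fell (-0.44 ± 0.10), while control cells in PCM had 1.34 to 1.75 FPKM. With the same FPKM sum the difference of Irf7 did not pass (-0.21). Bst2, which tethers virus particles at the cell surface, had 85.0, 83.0 and 82.7 FPKM in the libraries labelled shNdufa5_2_PCM against 133, 122 and 117 FPKM in the shControl_SCM libraries (-0.56 ± 0.06), with 43.4 to 45.3 FPKM in control cells in PCM. These 3 genes thus had more RNA in the unexposed libraries labelled shNdufa5_2 than in unexposed control cells, and Irf7 and Bst2 less than in exposed control cells. In PCM libraries labelled shNdufa5_1, another hairpin of the series, Ndufa5 averaged 6.49 FPKM. Isg15, Irf7 and Bst2 averaged 5.18, 1.18 and 43.0 FPKM there, and 4.80, 1.51 and 44.1 FPKM in control cells in PCM. By these means shNdufa5_1 in PCM stood near control cells in PCM for the 3 genes.

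The membrane restriction factor gene Ifitm3 (-0.65) and Ifi35 (-0.52) fell, and Ddx58, which encodes the RNA sensor RIG-I, rose (0.33). With the GC and length trends removed no gene of the list rose, and with the same FPKM sum Ifi35 did not pass (-0.29). The transcription factor genes of the interferon pathway included Stat2 (-0.10) and Irf9 (0.00), neither of which passed. Lgals3bp, a secreted galectin-binding glycoprotein, had 10.8, 7.80 and 8.72 FPKM in the libraries labelled shNdufa5_2_PCM against 9.80, 9.89 and 7.65 FPKM in the shControl_SCM libraries. The 95% interval of its difference was -0.24 to 0.23, and control cells in PCM had 3.65 to 4.17 FPKM. Ifi27 had 78.4, 78.1 and 77.8 FPKM in the libraries labelled shNdufa5_2_PCM against 90.3, 90.6 and 88.7 FPKM in the shControl_SCM libraries, with 41.0 to 42.3 FPKM in control cells in PCM. Its difference of -0.20 became 0.05 with values scaled to the same FPKM sum. Both were named because the medium moved them most among genes whose interval lay within the band, so their values are a description. By the same rule the actin-capping gene Capg (-0.36), the splicing factor gene Sfpq (0.30), the ferritin heavy chain gene Fth1 (-0.35, or 0.19 with quantile normalization), Il34 (-0.28), whose product is a ligand of the CSF1 receptor, Fgd3 (0.16), Adssl1 (-0.33), Abhd8 (-0.34) and Btaf1 (0.30) were named.

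By their median, MHC class I genes lay between both control groups. Of 16 tested, 9 fell and none rose, with a median of -0.26, and the medians were 0.29 for shNdufa5_2_PCM minus shControl_PCM and 0.67 for shControl_SCM minus shControl_PCM. The immunoproteasome subunit gene Psmb8 had 3.35, 4.06 and 4.21 FPKM in the libraries labelled shNdufa5_2_PCM against 8.59, 7.99 and 7.32 FPKM in the shControl_SCM libraries (-0.88 ± 0.14). The heavy chain gene H2-D1 fell by 0.53, and its fragments may be shared with similar H2 genes. Scaled to the same FPKM sum, 3 of the 16 genes fell and 3 rose.

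Immediate early and growth factor response genes held more rises than falls. Of 33 tested, 16 rose (48.5%, beside 17.8% of all genes), 7 fell (21.2%, beside 22.3%) and 10 did not pass. The median was 0.15, against -0.12 for shNdufa5_2_PCM minus shControl_PCM and -0.39 for shControl_SCM minus shControl_PCM. Egr1, a zinc finger transcription factor induced by growth factors, had 39.9, 41.6 and 41.2 FPKM in the libraries labelled shNdufa5_2_PCM against 19.9, 21.7 and 20.6 FPKM in the shControl_SCM libraries (0.95 ± 0.04, SE, limma with Benjamini-Hochberg, adjusted p = 2.2e-10). The groups were well apart, and control cells in PCM had 41.8 to 43.9 FPKM, just above the libraries labelled shNdufa5_2_PCM. Jun, a subunit of the factor AP-1, had 27.5, 28.5 and 28.6 FPKM in the libraries labelled shNdufa5_2_PCM against 16.8, 17.9 and 17.1 FPKM in the shControl_SCM libraries (0.68 ± 0.05). The antiproliferative gene Btg2 (0.76), the EGF receptor ligand gene Hbegf (0.64), the related growth factor targets Egr2 and Egr3 (0.49 each) and Myc (0.46) also rose, while Ier3 (-0.59), Srf (-0.42) and Nr4a1 (-0.38) fell. Among 18 MAPK feedback genes 4 rose (22.2%, beside 17.8% of all genes), led by the receptor inhibitor genes Errfi1 (0.64) and Spry2 (0.51). Another 6 fell (33.3%, beside 22.3%), while with the same FPKM sum 10 rose and none fell. Of 26 p53 targets and arrest genes 5 rose (19.2%, beside 17.8% of all genes), including Gadd45g (0.57) and Mdm2 (0.40), and 4 fell (15.4%, beside 22.3%), including Gadd45b (-0.39), or 12 and 0 with the same FPKM sum. In that list the cell cycle inhibitor gene Cdkn1a, at 41.5 ± 1.64 FPKM in the libraries labelled shNdufa5_2_PCM and 42.2 ± 1.14 FPKM in the shControl_SCM libraries (SD, n = 3 each), gave -0.02 with an interval of -0.11 to 0.06.

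The other large rises were scattered over functions. Srsf3, a splicing factor of the SR family, had 41.9, 38.4 and 38.3 FPKM in the libraries labelled shNdufa5_2_PCM against 19.9, 20.6 and 20.5 FPKM in the shControl_SCM libraries (0.93 ± 0.04), and control cells in PCM had 55.9 to 57.5 FPKM, above both. Of 20 tested SR factors 5 rose (25%, beside 17.8% of all genes), including Tra2b (0.42), and 3 fell (15%, beside 22.3%), including Rsrp1 (-0.59). The median was -0.01. With the same FPKM sum 10 rose and 1 fell (median 0.23), and with the GC and length trends removed 3 rose and 8 fell. Ly6c2, which encodes a GPI-anchored surface protein and may share fragments with Ly6c1, had 3.57, 3.30 and 2.29 FPKM in the libraries labelled shNdufa5_2_PCM against 0.896, 1.16 and 1.07 FPKM in the shControl_SCM libraries (0.98 ± 0.15). Control cells in PCM had 0.692 to 0.924 FPKM of it and the SCM libraries labelled shNdufa5_2 averaged 3.55, so Ly6c2 was high in both groups labelled with the hairpin and low in both control groups. Orc2, a subunit of the origin recognition complex, rose by 0.79 ± 0.10. The near-identical spliceosomal genes Mfap1b (0.96) and Mfap1a (0.77), the ubiquitin ligase adaptor gene Kctd11 (0.79), Tmem69 (0.79), Tstd3 (0.76), the golgin gene Golga5 (0.75) and the single-stranded DNA-binding protein gene Nabp1 (0.75) completed the 12 largest rises. Filip1l, named for the medium in earlier results of these data, rose by 0.35 and did not pass with the GC and length trends removed (0.18). The 4 rises of at least 2-fold were transcripts with model names, Gm25632 (1.60), Gm9922 (1.16), Gm45380 (1.10) and E030042O20Rik (1.08), named here after their values were seen. Gm25632, a snoRNA of 85 bp, had 2.17, 2.85 and 5.22 FPKM in the libraries labelled shNdufa5_2_PCM against 0, 1.74 and 0 FPKM in the shControl_SCM libraries. The 25 falls of at least 2-fold also held small RNAs and pseudogenes that the naming rule passed over. Mir669n (-3.36) was the largest fall of all, and Mir1943 (-2.05) and Gm25713 (-2.01) were others. These features span 54, 73 and 109 bp, so few fragments make up their FPKM values. Mir669n was at 0 in the libraries labelled shNdufa5_2_PCM and at 12.4, 9.33 and 6.82 FPKM in the shControl_SCM libraries.

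Extracellular matrix genes were lower as a group. Of 31 tested, 24 fell, none rose and 7 did not pass, with a median of -0.35, against 0.08 for shNdufa5_2_PCM minus shControl_PCM and 0.49 for shControl_SCM minus shControl_PCM. The median was -0.10 with values scaled to the same FPKM sum, where 8 fell and 2 rose. Col6a1, a chain of microfibril-forming collagen VI, had 2.81, 2.53 and 2.53 FPKM in the libraries labelled shNdufa5_2_PCM against 9.76, 10.8 and 10.7 FPKM in the shControl_SCM libraries (-1.66 ± 0.07), and control cells in PCM had 4.05 to 4.42 FPKM, so the libraries labelled shNdufa5_2_PCM were the lowest. Its partner chain gene Col6a2 fell by 1.08, the fibulin gene Fbln1 by 0.93 and Sparc, a collagen-binding glycoprotein gene, by 0.92. Mgp, an inhibitor of calcification bound to matrix, fell by 1.52 ± 0.09. Of 20 integrin and adhesion genes 12 fell (60%, beside 22.3% of all genes), led by the laminin receptor chain gene Itga7 (-0.83). Another 3 rose (15%, beside 17.8%), while with the same FPKM sum 6 fell and 8 rose. The summed fibroblast markers given above were lower in the libraries labelled shNdufa5_2_PCM as well, but that sum itself holds collagen genes. Col3a1 lay at 5.0 to 5.3 FPKM there and 6.5 to 7.9 in the shControl_SCM libraries, and Col1a1 at 1.6 to 1.7 and 2.1 to 2.6. The fibroblast markers Pdgfra and Dcn overlapped between the groups, and Thy1 was at 0 throughout. The part of fibroblasts in the matrix result was not tested. In bulk RNA, fewer cells of a type and less RNA per cell cannot be told apart.

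Epithelial genes and YAP targets also held large falls. Krt19, a keratin of simple epithelia, had 239, 232 and 239 FPKM in the libraries labelled shNdufa5_2_PCM against 426, 444 and 400 FPKM in the shControl_SCM libraries (-0.83 ± 0.04). Of 12 tested epithelial genes 7 fell, including Pax8 (-0.44), and 1 rose. With the same FPKM sum 2 fell and 2 rose, and Pax8 did not pass (-0.20), and with quantile normalization 3 fell and 2 rose. The summed mesothelial markers given above were lower in the libraries labelled shNdufa5_2_PCM too, but Krt19 and Msln made up nearly all of that sum. The sum therefore largely repeats the Krt19 values, and the part of mesothelial cells in the epithelial result was not tested. Among 15 targets of YAP and TEAD 5 fell (33.3%, beside 22.3% of all genes) and 1 rose (6.67%, beside 17.8%), with a median of -0.02. With the same FPKM sum the median was 0.21, and 3 fell and 7 rose. The matricellular protein gene Ctgf had 33.0, 34.7 and 34.5 FPKM in the libraries labelled shNdufa5_2_PCM against 60.1, 60.9 and 61.1 FPKM in the shControl_SCM libraries (-0.82 ± 0.05), with 60.0 to 65.6 FPKM in control cells in PCM. Its relative Cyr61 fell by 0.63. In these libraries Ctgf was low in both groups labelled shNdufa5_2, with a mean of 35.9 FPKM in SCM, and high in both control groups. Of 21 mesenchymal and TGF-beta genes 7 fell (33.3%, beside 22.3% of all genes), led by the collagen crosslinking enzyme gene Loxl2 (-0.75). Rises numbered 3 (14.3%, beside 17.8%), led by the transcription factor gene Snai2 (0.59), and with the same FPKM sum 4 fell and 8 rose.

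Nearly all genes of cytosolic ribosomal proteins lay below their level in exposed control cells and, by their median, above that in unexposed ones. Of 65 tested, 61 fell, none rose and 4 did not pass, with a median of -0.54. The median was 0.49 for shNdufa5_2_PCM minus shControl_PCM and 1.04 for shControl_SCM minus shControl_PCM. The median stayed below 0 at -0.43 with the GC and length trends removed, at -0.29 with the same FPKM sum and at -0.13 with quantile normalization, where 33 fell and 3 rose. Summed FPKM of the 65 tested genes was 36380 to 37330 in the libraries labelled shNdufa5_2_PCM and 53000 to 56990 in the shControl_SCM libraries. Rpl9 of the large subunit had 234, 216 and 233 FPKM in the libraries labelled shNdufa5_2_PCM against 366, 381 and 357 FPKM in the shControl_SCM libraries (-0.69 ± 0.04). Rps27a did not pass (0.34, 95% interval -0.68 to 1.36), with libraries of both groups spread from 123 to 263 FPKM. Ribosomal protein genes have many processed copies in the genome, and how the authors counted shared fragments is not given in the sources used here.

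Subunits of the respiratory chain were lower along with them. Of 34 tested complex I subunits other than Ndufa5, 26 fell, 1 rose and 7 did not pass, with a median of -0.36, against 0.27 for shNdufa5_2_PCM minus shControl_PCM and 0.62 for shControl_SCM minus shControl_PCM. Ndufa5, at -0.38, thus lay near the middle of its complex. Ndufs8, an iron-sulfur subunit of the arm that reaches the matrix, had 121, 114 and 120 FPKM in the libraries labelled shNdufa5_2_PCM against 193, 184 and 188 FPKM in the shControl_SCM libraries (-0.67 ± 0.05), and the membrane arm subunit gene Ndufb10 fell by 0.67. The rise was Ndufs1, the largest iron-sulfur subunit (0.22), whose level was 7.97 to 8.08 FPKM in the libraries labelled shNdufa5_2_PCM and 6.38 to 7.01 FPKM in the shControl_SCM libraries. With the same FPKM sum the median of complex I was -0.11, and 6 genes fell and 1 rose, and with the GC and length trends removed 24 fell and none rose. Complexes II to V gave 27 falls, 1 rise and 11 that did not pass among 39 (median -0.27), led by the ATP synthase subunit gene Atp5e (-0.70), but 9 falls and 1 rise with the same FPKM sum (median -0.02) and 11 falls and 3 rises with quantile normalization. The messenger RNAs of the mitochondrial genome gave 4 falls among 12 (33.3%, beside 22.3% of all genes) and no rise. Their median of -0.13 became 0.11 with the same FPKM sum and 0.09 with quantile normalization.

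**Figure D4:**
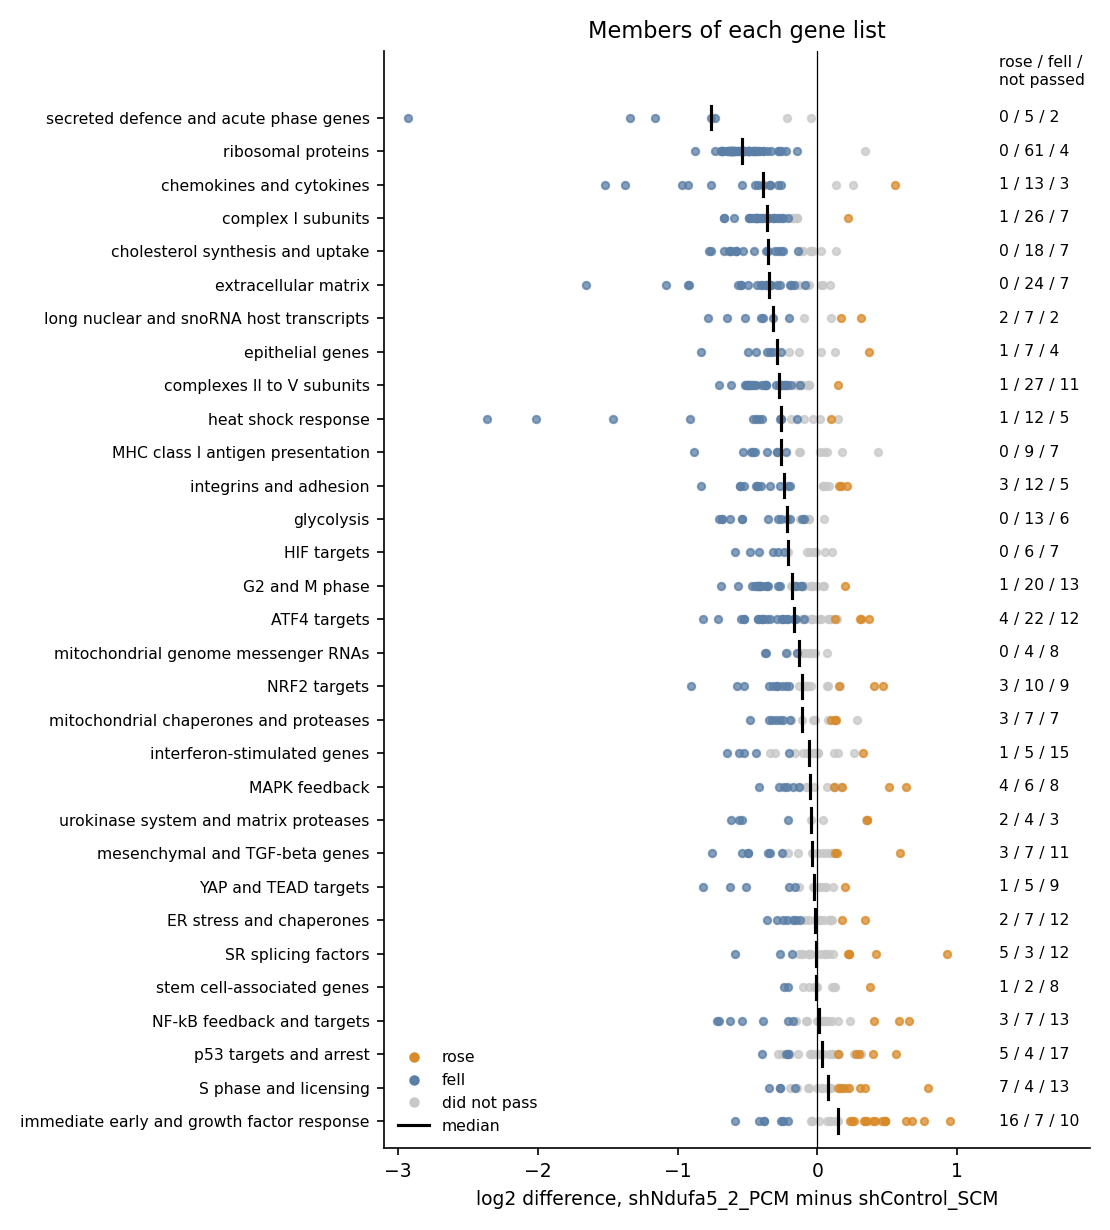
Log2 difference of shNdufa5_2_PCM minus shControl_SCM for each tested member (points) of 31 gene lists, ordered by their medians (bars), with genes that rose in orange, genes that fell in blue and genes that did not pass in grey. Secreted defence genes have the lowest median (-0.76), immediate early genes the highest (0.15), and interferon-stimulated genes hold 15 of 21 members that did not pass.

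Metabolic genes fell in part. Of 25 genes of cholesterol synthesis and uptake 18 fell and none rose, with a median of -0.35 and of -0.12 with the same FPKM sum, where 10 fell and 2 rose. They included Pmvk (-0.77) and Mvk (-0.62) of the mevalonate pathway and Insig1 (-0.58), while Sqle (-0.11) and Hmgcs1 (-0.04) did not pass. Of 19 glycolytic genes 13 fell, including Tpi1 (-0.70) and Eno1 (-0.68), with a median of -0.21 that became 0.03 with the same FPKM sum, where 6 fell and 3 rose. Among 38 targets of the stress factor ATF4, 22 fell and 4 rose (median -0.17, or 0.08 with the same FPKM sum, where 6 fell and 13 rose, and 0.01 with quantile normalization). The serine synthesis gene Phgdh had 518, 513 and 527 FPKM in the libraries labelled shNdufa5_2_PCM against 842, 874 and 831 FPKM in the shControl_SCM libraries (-0.71 ± 0.03), and the stress cytokine gene Gdf15 fell by 0.82, while Cebpg (0.37) and Cth (0.30) rose. Aldh3a1, which oxidizes aldehydes, had 11, 12.3 and 9.32 FPKM in the libraries labelled shNdufa5_2_PCM against 27.5, 28.4 and 28.1 FPKM in the shControl_SCM libraries (-1.29 ± 0.09). Of 22 NRF2 targets 10 fell (45.5%, beside 22.3% of all genes), including the glutathione transferase gene Gstm1 (-0.91). Another 3 rose (13.6%, beside 17.8%), including Srxn1 (0.47) and Nqo1 (0.40), but with the same FPKM sum 3 fell and 8 rose. All 21 tested genes of ER stress and chaperones had intervals within -0.5 and 0.5, beside 72% of all genes. Within that band 7 fell (33.3%, beside 22.3% of all genes) and 2 rose (9.52%, beside 17.8%), with a median of -0.02. With the same FPKM sum 11 rose and none fell (median 0.22), and with the GC and length trends removed 2 rose and 11 fell. Hspa5 of this list, the chaperone BiP of the ER lumen, had 751 ± 15.3 FPKM in the libraries labelled shNdufa5_2_PCM and 740 ± 13.8 FPKM in the shControl_SCM libraries (SD, n = 3 each, difference 0.02).

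Among cell cycle genes, those of G2 and M phase fell more often than they rose. Of 34 such genes 20 fell and 1 rose, with a median of -0.18 that became 0.05 with the same FPKM sum, where 6 fell and 4 rose. Cenpf, a kinetochore protein gene, fell by 0.69, and the mitotic cyclin gene Ccnb1 had 24.0, 26.7 and 24.2 FPKM in the libraries labelled shNdufa5_2_PCM against 36.6, 38.5 and 37.5 FPKM in the shControl_SCM libraries (-0.57 ± 0.05). Control cells in PCM had 23.1 to 25.2 FPKM of Ccnb1, level with the libraries labelled shNdufa5_2_PCM. Of 24 S phase and licensing genes 7 rose (29.2%, beside 17.8% of all genes), including Orc2, and 4 fell (16.7%, beside 22.3%), including Mcm2 (-0.26). That split was 14 rises and no fall with the same FPKM sum, and 3 rises and 4 falls with the GC and length trends removed. Malat1, a long RNA kept in the nucleus, fell by 0.78, and Neat1, the scaffold of paraspeckles, rose by 0.31. These belong to a list of 11 tested long nuclear and snoRNA host transcripts. Of that list 7 fell (63.6%, beside 22.3% of all genes) and 2 rose (18.2%, beside 17.8%), or 3 and 3 with the same FPKM sum.

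Among 13 targets of the hypoxia factor HIF, 6 fell, led by the vasodilator peptide gene Adm (-0.59), and none rose, while with the same FPKM sum 1 fell and 2 rose. Of 17 mitochondrial chaperones and proteases 7 fell (41.2%, beside 22.3% of all genes), led by the prohibitin gene Phb2 (-0.48). Rises numbered 3 (17.6%, beside 17.8%), and with the same FPKM sum 1 fell and 8 rose. Of 9 tested genes of the urokinase system and matrix proteases 4 fell (44.4%, beside 22.3% of all genes). Rises numbered 2 (22.2%, beside 17.8%), and with the same FPKM sum 3 fell and 4 rose. Plau, which encodes the protease, and Plaur, which encodes its receptor, rose by 0.35 each. Of 11 stem cell-associated genes 2 fell (18.2%, beside 22.3% of all genes), against none with the same FPKM sum. The transcription factor gene Sox9 alone rose (0.38; 9.09% of the list, beside 17.8%), against 3 genes with the same FPKM sum.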

How the data were processed

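The authors deposited 1 table of FPKM values for 54532 mouse genes, whose 18 columns were matched to libraries by name. The submitters' processing notes name STAR 2.6.1, DESeq2, GRCm38 and mm10. Which counter, annotation and strand setting were used is not given in the sources used here, so antisense genes and near-identical copies are uncertain. Low values came in steps of 1 fragment, and 99.5 to 99.8% of those of genes with a single transcript were whole, which gave depths of 13.8 to 38.9 M fragments per library.

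Values were analysed as log2(FPKM + 1), a scale on which low genes change less, using limma 3.58.1 in R 4.3.3. A single model of all 6 groups, with trended moderated variances and no replicate block, was fitted to 11084 genes, those whose mean FPKM reached 1. Tests were two-sided with Benjamini-Hochberg adjustment over all of these genes, with calls made at an adjusted p under 0.05. On simulated data in which 200 of 11084 genes differed by a log2 of 0.5 in this comparison, 72.5% were recovered with 8 false calls, and 94.5% with 8 at a log2 of 1. The comparison, its members and the 35 gene lists were chosen with earlier results of these data known. Lists are described by counts and medians.

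Named genes were Ndufa5, the 12 largest rises and 12 largest falls among called genes whose libraries did not overlap, passing over model names and features under 300 bp, the 10 genes most moved by the medium in control cells among those with an interval within -0.5 and 0.5, genes named earlier for the medium, and up to 4 called genes per list with the largest differences. Others are named as list members. Alternatives were another pseudocount, other filters, scaling to the same FPKM sum, quantile normalization, removal of GC and length trends, a replicate block, a fit of both groups alone, and leaving out each library. Promoter sequences came from RefSeq. Some genes that this rule names are not reported here.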

Additional observations from a re-analysis of the deposited data

How the results depend on the processing

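Counts of calls and of 2-fold changes depended on scaling and on low genes. With the same FPKM sum, 4260 genes rose and 531 fell, 17 and 16 of them by at least 2-fold. With a pseudocount of 0.1, 29 rose and 45 fell by at least 2-fold, and with a mean FPKM of at least 5 these were 0 and 10. Without a filter, 19860 intervals lay within the band, more genes being tested. With GC and length trends removed 12 rose by at least 2-fold, and with the replicate block as well 1316 rose, 11 by at least 2-fold. A fit of both groups alone gave 8 rises of at least 2-fold.

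Without each library in turn, 1617 to 1785 genes rose, 2158 to 2258 fell, 4 to 14 rose and 24 to 34 fell by at least 2-fold, and 7494 to 7609 intervals lay within the band. The most rises of at least 2-fold, 14, came without shControl_SCM replicate 2, the deepest library. Ndufa5 gave -0.44 to -0.29, and did not pass without shNdufa5_2_PCM replicate 2 or 3 or shControl_SCM replicate 2. It also did not pass without a filter (-0.38, limma adjusted p = 0.0615), with the same FPKM sum (-0.13) or with quantile normalization (-0.29). The causes were not tested.

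Among single genes, the sign turned with the same FPKM sum for Ifi27 (0.0504), Creld2 (0.00602), Axl (0.0485), mt-Nd2 (0.0311), mt-Nd5 (0.105), Hes1 (0.00351) and Klf4 (0.0325). With quantile normalization it turned for Fth1 (0.186), Calr (0.0718), Ftl1 (0.0128), Axl (0.131), Lonp1 (0.0568), mt-Nd2 (0.175) and mt-Nd5 (0.291). Replicate numbers did not pair the samples: deviations of same-numbered libraries correlated at 0.0317, 0.000819 and 0.042. The replicate block gave 1951 rises and 2448 falls and changed no call among 149 named genes. Leaving out each library ended the calls of 2 to 5 of these 149 genes, drawn from Col1a1, Il34, Mxi1, Orc6, Srsf4 and mt-Co2. The median SE over all genes was 0.078 on the log2 scale at 3 libraries a group, and detection was not tested by expression level.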
